A study of Mus musculus with 16 samples.

Results

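The expression of 8 genes of efferocytosis, the uptake of dying cells by phagocytes, was analysed in bone marrow-derived macrophages (BMDMs). The genes were Mertk, Axl, Tyro3, Gas6, Pros1, Timd4, Mfge8 and Stab1, 8 of the 55487 genes in the count table. They were chosen by name as receptors and bridging molecules of dying cells, and also because Mertk and Timd4 responded in opposite directions to the JAK inhibitor ruxolitinib (Rux). The values of ruxolitinib against no inhibitor in the same medium are therefore given as a description, with no test of these genes. All 8 were found in the table, and 7 of them passed the filter on low counts, which asked for more than 1 CPM (counts scaled to library size) in at least 2 samples. Tyro3 did not pass.

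Dying cells expose phosphatidylserine, a lipid that living cells keep on the inner face of their membrane. Macrophages bind it directly, through receptors such as TIM-4 (gene Timd4) and stabilin-1 (Stab1), or through soluble bridging proteins that hold the dying cell and a receptor together. GAS6 and protein S (Pros1) bridge to the receptor tyrosine kinases TYRO3, AXL and MERTK, named the TAM family after their initials, and MFG-E8 (Mfge8) bridges to integrins. TIM-4 is known for tethering dying cells and MERTK for the signal that drives their engulfment, and TIM-4 is also known as a marker of macrophages that reside in tissues.

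RNA was measured in 16 samples of BMDMs from wild-type Balb/c mice of 8 weeks, in 6 groups that share this strain and genotype. In the CM group (3 samples) the cells received medium conditioned by 4T1 cells, a mouse mammary tumor line. The CM + Rux group (3 samples, labelled 4 h) received this medium with 0.5 μM ruxolitinib, which inhibits JAK1 and JAK2, and the CM + Rux + IKK-16 group (3 samples) received in addition 0.8 μM IKK-16, which inhibits the IKK kinases upstream of NF-κB. DMEM alone (2 samples) and DMEM + Rux (3 samples) were the groups without tumor factors, and the dose of ruxolitinib in DMEM is not given in the sources used here. A further 2 samples of CM + Rux carried the label 2 h, and what this time refers to is not stated. Per the study's methods, BMDMs were treated for 4 h before RNA isolation, after 2 h of serum starvation. In cells given CM and ruxolitinib, the inhibitor was already added in the pre-treatment. No sample received IKK-16 without ruxolitinib, so the response to IKK-16 was measured only on top of JAK inhibition. BMDMs are grown in culture and lack the tissue signals that resident macrophages receive. The RNA samples were submitted in triplicate per the study, whose general statement is that experiments were repeated, but neither it nor the labels say whether the replicates sequenced came from separate mice or cultures, so p-values measure the spread between these samples, which may be technical.

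The count tables summed to between 18449388 and 46215853 fragments a sample. All 6 macrophage markers were expressed, with a summed level of 33800 to 45000 CPM in every sample, which fits the label of macrophages. Of 6 markers of tissue-resident macrophages, 4 exceeded 1 CPM in some sample, their sum was 26.1 to 74.8 CPM, and Lyve1 reached at most 0.153 CPM. Epithelial markers, which the 4T1 cells could carry, summed to 1.02 to 1.5 CPM in CM, 0.356 to 1.02 CPM in CM + Rux and at most 0.118 CPM in DMEM, and Epcam was at 0 in 10 of 16 samples. Neutrophil markers summed to at most 3.15 CPM with Ly6g at 0 in all samples, B cell markers to at most 0.233 CPM, and T and NK cell markers to at most 0.0552 CPM. Fibroblast markers summed to 5.83 to 20.9 CPM and endothelial markers to 14.4 to 31.2 CPM, and the endothelial sum was higher with IKK-16 (22.4 to 31.0 CPM) than in CM + Rux (14.4 to 20.3 CPM). The part of such cells in the results was not tested, and in bulk RNA fewer cells that express a gene and less RNA of it per cell cannot be told apart. Library sizes behind the CPM values were adjusted by the RLE (relative log expression) method, and FPKM values divide them by the kilobases of exon of a gene so that genes can be compared with each other.

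The promoters of 4 of the genes are shown because these were the genes called in at least 1 tested comparison and because ruxolitinib and IKK-16 act on pathways that end in STAT and NF-κB factors. Each is the 250 bases before the RefSeq start of the gene in GRCm38.p6, on the strand of the gene, from chr2:128698665-128698914 (plus strand) for Mertk, chr16:62854057-62854306 (plus) for Pros1, chr8:13494536-13494785 (minus) for Gas6 and chr11:46810549-46810798 (plus) for Timd4. Capitals mark matches, on either strand, to 4 motifs, TTCNNNGAA of STAT factors, the interferon response element (GAAA and GAAA with 2 free bases between them), the NF-κB motif (GGGA and CC with 4 free bases between them) and AGGTCA of nuclear receptors.
Mertk: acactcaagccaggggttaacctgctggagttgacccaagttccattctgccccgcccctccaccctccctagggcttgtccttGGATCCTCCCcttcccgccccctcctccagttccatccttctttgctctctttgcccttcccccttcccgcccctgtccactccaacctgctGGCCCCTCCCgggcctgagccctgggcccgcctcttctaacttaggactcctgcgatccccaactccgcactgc
Pros1: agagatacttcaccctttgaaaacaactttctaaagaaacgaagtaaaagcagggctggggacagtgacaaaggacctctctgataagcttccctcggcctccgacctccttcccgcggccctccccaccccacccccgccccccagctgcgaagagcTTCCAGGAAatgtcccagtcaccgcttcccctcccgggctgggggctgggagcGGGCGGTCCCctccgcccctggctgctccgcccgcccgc
Gas6: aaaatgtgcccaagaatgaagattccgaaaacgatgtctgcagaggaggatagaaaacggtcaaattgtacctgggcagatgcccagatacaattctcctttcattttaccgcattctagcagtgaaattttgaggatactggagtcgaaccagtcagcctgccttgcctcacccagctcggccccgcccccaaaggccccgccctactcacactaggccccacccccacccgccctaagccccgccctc
Timd4: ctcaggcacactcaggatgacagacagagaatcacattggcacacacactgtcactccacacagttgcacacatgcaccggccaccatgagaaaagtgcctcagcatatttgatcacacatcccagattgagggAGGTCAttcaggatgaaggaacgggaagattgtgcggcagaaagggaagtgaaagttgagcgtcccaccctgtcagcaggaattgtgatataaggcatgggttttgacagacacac
The Mertk promoter held 2 matches to the NF-κB letters on its reverse strand, at 166 to 157 and at 74 to 65 bases before the start. The Pros1 promoter held the STAT letters as TTCCAGGAA at 92 to 84 bases and the NF-κB letters as GGGCGGTCCC at 39 to 30 bases before the start. Timd4 held AGGTCA at 116 to 111 bases before the start, and Gas6 held none of the 4 motifs. Of the promoters not shown, that of Axl held 1 match to the NF-κB motif, and those of Tyro3, Stab1 and Mfge8 held none of the 4. Over all 32851 promoters of this length, 7.02% held the STAT letters, 2.98% the interferon letters, 17.6% the NF-κB letters and 14.0% AGGTCA. A match describes the letters in this window and is no evidence of binding.

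In DMEM the ligand Gas6 had the highest level per kilobase of the 8 genes, at 203 ± 26.9 FPKM (SD, n = 2). Axl followed at 87.0 ± 18.1 FPKM and Stab1 at 40.0 ± 11.1 FPKM. Mertk was the second TAM receptor of these cells, far below Axl at 5.85 ± 0.625 FPKM, and its samples overlapped with those of Mfge8. Timd4 had 1.71 ± 0.314 FPKM in DMEM and Tyro3 0.0460 ± 0.00907 FPKM. In CM the order changed at both ends of the list. Axl was highest at 116 ± 18.0 FPKM (SD, n = 3), above Gas6 at 65.4 ± 3.26 FPKM, and Timd4 at 12.5 ± 2.99 FPKM stood above Mertk at 3.92 ± 1.34 FPKM. These are levels scaled to library and gene length, not numbers of protein or cells.

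**Figure D1:**
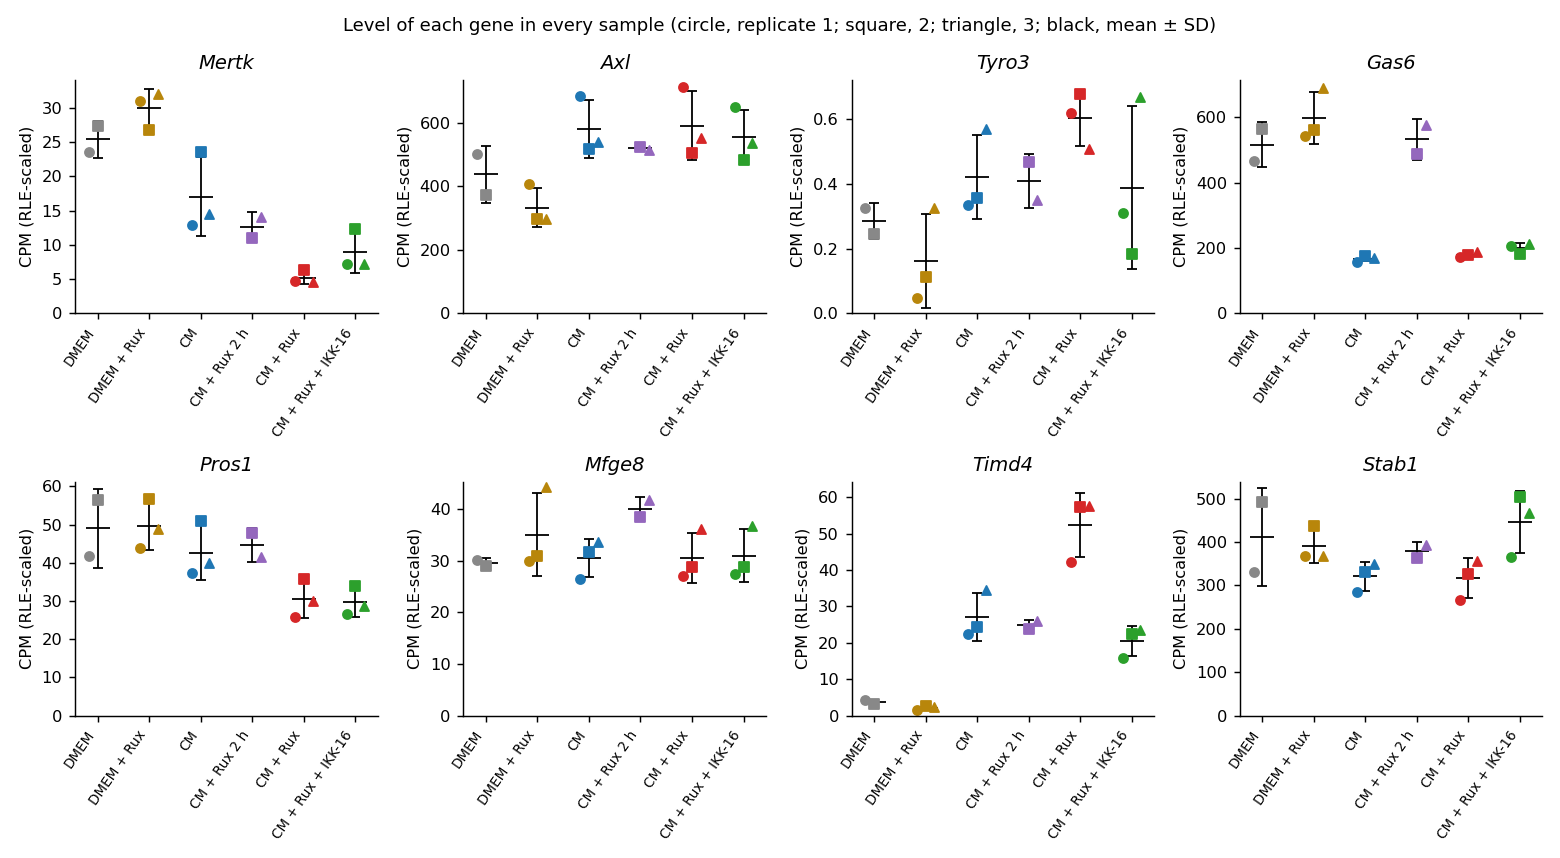
Level of each of the 8 genes in every sample, in RLE-scaled CPM (y axis, starting at 0 and set per gene), by group (x axis). Points are samples with the replicate number as shape, and black bars are the mean and SD. Mertk ran from 30.0 CPM in DMEM + Rux down to 5.18 CPM in CM + Rux, while Timd4 was highest in CM + Rux at 52.4 CPM.

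Mertk (ENSMUSG00000014361, chromosome 2 from 128698956 to 128802894 of GRCm38, plus strand), the TAM receptor that signals engulfment, was lower in every group with tumor medium and ruxolitinib than in DMEM. Its levels were 23.5 and 27.3 CPM in DMEM, 31.0, 26.8 and 32.0 CPM in DMEM + Rux, and 12.9, 23.6 and 14.5 CPM in CM. In CM + Rux they were 4.72, 6.25 and 4.58 CPM, with IKK-16 in addition 7.19, 12.3 and 7.14 CPM, and in the 2 h group 11.0 and 14.1 CPM. CM replicate 2 lay at the level of the DMEM samples, apart from the other CM samples, and the CM + Rux samples lay below those of every other group. In the order of group means, only the CM + Rux samples stood apart from their neighbour, the CM + Rux + IKK-16 group. The samples of all other neighbours in this order overlapped.

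Axl (ENSMUSG00000002602, chromosome 7 from 25757273 to 25788705, minus strand), a TAM receptor known to be induced in inflamed macrophages, varied less. It had 502 and 374 CPM in DMEM, 406, 297 and 297 CPM in DMEM + Rux, 685, 519 and 540 CPM in CM, and 714, 505 and 554 CPM in CM + Rux. With IKK-16 it had 649, 483 and 538 CPM and in the 2 h group 525 and 515 CPM. All CM samples lay above both DMEM samples, and the 4 groups with tumor medium overlapped. Replicate 1 was the highest sample in each group that held it. Tyro3 (ENSMUSG00000027298, chromosome 2 from 119797733 to 119818104, plus strand), the third TAM receptor, had 1 to 28 counts and 0.0462 to 0.678 CPM per sample, and differences at this depth were not tested.

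Gas6 (ENSMUSG00000031451, chromosome 8 from 13465374 to 13494490, minus strand), the ligand of all TAM receptors, fell into a high and a low set of groups. It had 468 and 565 CPM in DMEM, 542, 561 and 689 CPM in DMEM + Rux, and 488 and 578 CPM in the 2 h group. In CM it had 158, 174 and 169 CPM, in CM + Rux 172, 177 and 187 CPM, and with IKK-16 206, 183 and 211 CPM. Every sample of the first 3 groups was above every sample of the others, so the 2 h group, although it received tumor medium by its label, lay with the DMEM groups. Pros1 (ENSMUSG00000022912, chromosome 16 from 62854307 to 62929346, plus strand), the ligand protein S, had 41.7 and 56.4 CPM in DMEM, 43.8, 56.7 and 48.8 CPM in DMEM + Rux, and 37.3, 50.9 and 39.9 CPM in CM. It had 25.7, 35.8 and 30.0 CPM in CM + Rux, 26.6, 34.0 and 28.6 CPM with IKK-16, and 47.7 and 41.4 CPM in the 2 h group. The samples of both 3-sample groups with ruxolitinib in tumor medium lay below all other samples, and replicate 2 was the highest in every group.

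Timd4 (ENSMUSG00000055546, chromosome 11 from 46810800 to 46844332, plus strand), the receptor that tethers dying cells, had the widest range, relative to its lowest sample, of the 7 genes that passed the filter. It had 4.20 and 3.23 CPM in DMEM, 1.57, 2.59 and 2.33 CPM in DMEM + Rux, and 22.4, 24.4 and 34.5 CPM in CM. In CM + Rux it reached 42.2, 57.3 and 57.6 CPM, with IKK-16 it had 15.7, 22.3 and 23.5 CPM, and in the 2 h group 23.9 and 25.9 CPM. The CM + Rux samples were above all others, the DMEM + Rux samples below all others, and the CM and 2 h samples overlapped. The counts behind the lowest group were 34 to 116 per sample. The summed level of dendritic cell markers followed the same order among the DMEM, CM, CM + Rux and CM + Rux + IKK-16 groups. The sum of their 6 genes was 1.51 to 2.28 CPM in DMEM, 1.02 to 2.17 CPM in DMEM + Rux, 4.45 to 7.01 CPM in CM, 7.28 to 11.1 CPM in CM + Rux and 3.61 to 5.23 CPM with IKK-16. In the 2 h group it was 13.6 to 17.2 CPM, where Timd4 was no higher than in CM. Only Zbtb46 and Ccr7 of this list exceeded 1 CPM in any sample, while Flt3, Xcr1, Clec9a and Siglech stayed at or below 0.552 CPM. Ccr7, at up to 8.82 CPM, made up most of the sum in CM + Rux, so that order is not one of the list as a whole. The part of the source of these markers in the Timd4 level was not tested.

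Stab1 (ENSMUSG00000042286, chromosome 14 from 31139013 to 31168641, minus strand), a scavenger receptor that binds phosphatidylserine, was expressed in all samples between 267 and 504 CPM. It had 366, 504 and 468 CPM with IKK-16, against 284, 331 and 349 CPM in CM and 267, 326 and 357 CPM in CM + Rux. The IKK-16 samples lay above those of both groups, although the lowest of them was close to the highest CM + Rux sample. The DMEM samples at 331 and 492 CPM spanned most of this range. Mfge8 (ENSMUSG00000030605, chromosome 7 from 79133768 to 79149060, minus strand), the bridge to integrins, had 26.4 to 44.3 CPM over all samples. Its highest sample was DMEM + Rux replicate 3, and the neighbours in the order of its 6 group means all overlapped.

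The comparison of CM with DMEM asked how medium conditioned by tumor cells changes the macrophages. Per the study, the 4T1 cells were grown in medium with RPMI. Base medium and nutrients used up by the cells may therefore differ too, and cannot be told apart from tumor factors. Timd4 rose 7.24-fold and Gas6 fell to 0.323 of its level, and these were the only genes called of the 7. A call needed an adjusted p-value under 0.05 in edgeR's quasi-likelihood test together with a change larger than 0.5 on the log2 scale, up or down. Each log2 change is printed with its standard error (SE). The mean of Timd4 in CM was 27.1 ± 6.51 CPM (SD, n = 3) beside 3.72 ± 0.681 CPM in DMEM (SD, n = 2), which is 2.86 ± 0.26 in log2 (SE, edgeR adjusted p = 6.6e-07). Gas6 had 167 ± 8.31 CPM against 516 ± 68.6 CPM, which is -1.63 ± 0.12 in log2 (SE, edgeR adjusted p = 6.7e-08). Over all 12372 genes tested, 45.0% were called in this comparison, so 2 of 7 is no larger share than among all genes, and 3 of 7 had groups without overlap beside 74.8% of all genes. RLE scaling set the median of all genes 0.312 higher on the log2 scale than scaling by total counts.

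Mertk had a log2 fold change of -0.57 in CM against DMEM and was not called (SE 0.26, edgeR adjusted p = 0.072). Without CM replicate 2, whose Mertk level was that of DMEM, the log2 fold change was -0.89 (adjusted p = 0.00663 with edgeR), and without the filter on low counts it was -0.56 (adjusted p = 0.0161 with edgeR), so Mertk was called in both. Axl stood at 0.41 ± 0.19 in log2 (SE) and Stab1 at -0.36 ± 0.17, and neither was called. Without DMEM replicate 1 both passed, Axl at 0.64 and Stab1 at -0.61. Pros1 at -0.20 and Mfge8 at 0.05 were not called, and both changed sign when single samples were left out.

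**Figure D2:**
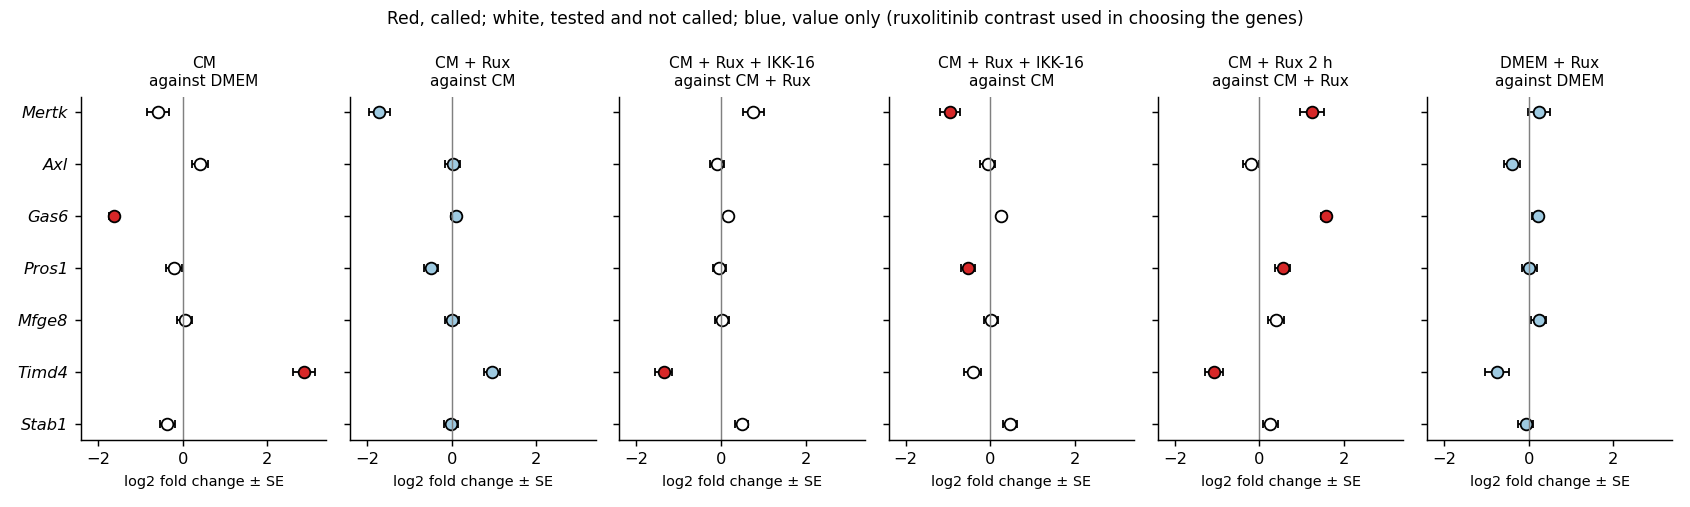
Log2 fold changes with their standard errors (x axis) of the 7 genes that passed the filter (y axis) in 6 comparisons. Red points were called, white points were tested and not called, and blue points are the ruxolitinib contrasts, given as values only. Timd4 lies at 2.86 in CM against DMEM and at -1.35 where IKK-16 was added to CM + Rux. Mertk lies at -0.57 and 0.76 in these panels and was not called in either. The opposite sides of the 2 genes in CM + Rux against CM were set by the choice of the genes.

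The effect of ruxolitinib in tumor medium, part of what the genes were chosen by, was as follows. In CM + Rux the mean of Mertk was 5.18 ± 0.926 CPM, beside 17.0 ± 5.80 CPM in CM (SD, n = 3 each), which is -1.71 ± 0.25 in log2 (SE), with ratios of 0.367, 0.265 and 0.316 between samples of the same number. Timd4 had 52.4 ± 8.81 CPM against 27.1 ± 6.51 CPM, which is 0.95 ± 0.19 in log2 (SE), with ratios of 1.88, 2.35 and 1.67. Pros1 had 30.5 ± 5.05 CPM against 42.7 ± 7.22 CPM, which is -0.49 ± 0.16 in log2 (SE). The samples of Mertk, Timd4 and Pros1 did not overlap between the groups, and those of the other 4 genes did. Axl, Gas6, Stab1 and Mfge8 had log2 fold changes between -0.02 and 0.10. Over all genes 3.33% were called in this comparison and 19.2% had groups without overlap, and blocking on the replicate number moved the calls from 412 to 745. Leaving out CM replicate 2 gave 258 calls, and leaving out CM + Rux replicate 1 gave 243.

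In DMEM the value of Timd4 was lower with ruxolitinib, the other direction than in tumor medium, and that of Mertk differed by less than its error. Whether the effects differ between media was not tested. Timd4 had 2.16 ± 0.530 CPM (SD, n = 3) with ruxolitinib and 3.72 ± 0.681 CPM (SD, n = 2) without, which is -0.75 ± 0.28 in log2 (SE), and its samples did not overlap. Mertk had 30.0 ± 2.78 CPM against 25.4 ± 2.71 CPM, which is 0.24 ± 0.26 in log2 (SE), and its samples overlapped. The other 5 genes had log2 fold changes between -0.39 for Axl and 0.24 for Mfge8, with overlapping samples. Over all genes 0.97% were called and 18.5% had groups without overlap.

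The addition of IKK-16 to CM + Rux asked which differences depend on IKK. Timd4 fell in all 3 pairs of the same number, to 0.372, 0.389 and 0.408 of its level, and was the only gene called of the 7, beside 7.74% of all genes. Its mean was 20.5 ± 4.20 CPM (SD, n = 3) with IKK-16 and 52.4 ± 8.81 CPM without, which is -1.35 ± 0.20 in log2 (SE, edgeR adjusted p = 0.00067). Mertk had 8.88 ± 2.98 CPM with IKK-16 and 5.18 ± 0.926 CPM without, which is 0.76 ± 0.25 in log2 (SE, edgeR adjusted p = 0.06), so it was not called. When the fit was blocked on the replicate number, so that each sample was compared with that of its own number, Mertk was called at 0.75 (adjusted p = 0.0246 with edgeR), and 2 genes were called instead of 1. Mertk was also called with TMM scaling (an adjusted p that rounds to 0.05 with edgeR), without the filter, with the likelihood ratio test and with DESeq2. Without CM + Rux + IKK-16 replicate 2, its highest sample, the value was 0.45 (adjusted p = 0.225 with edgeR). Stab1 stood at 0.49 ± 0.16 in log2 (SE, edgeR adjusted p = 0.051), which just missed both thresholds, and was called with TMM scaling, without CM + Rux replicate 3 and without CM + Rux + IKK-16 replicate 1. Gas6 at 0.16, Axl at -0.09, Pros1 at -0.04 and Mfge8 at 0.02 were not called. Samples of 3 of the 7 genes did not overlap, beside 31.5% of all genes. This comparison shares the CM + Rux samples with the contrast by which the genes were chosen. The choice favoured a high Timd4 and a low Mertk in those samples. The changes and p-values of both genes here therefore lean in the reported directions.

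Against CM alone, Mertk and Pros1 were lower in CM + Rux + IKK-16 and Timd4 was not called. Timd4 stood at -0.41 ± 0.20 in log2 (SE, edgeR adjusted p = 0.15) with overlapping samples. Mertk was lower, at -0.95 ± 0.24 in log2 (SE, edgeR adjusted p = 0.012), and so was Pros1, at -0.53 (SE 0.16, edgeR adjusted p = 0.03). These 2 of 7 genes were called, beside 12.7% of all genes, and samples of 4 of 7 did not overlap, beside 37.9%. This comparison shares the CM samples with the contrast by which the genes were chosen, and so does CM against DMEM. Ruxolitinib also differed between CM + Rux + IKK-16 and CM, so the choice of genes favoured a lower Mertk and a higher Timd4. The p-value of Mertk is therefore no independent support. The calls of Mertk and Pros1 were both lost when certain single samples were left out. Without CM replicate 2, Mertk had a log2 change of -0.63 (edgeR adjusted p = 0.0746) and Pros1 one of -0.38 (adjusted p = 0.142 with edgeR). Without IKK-16 replicate 3, neither was called (adjusted p = 0.0555 and 0.0874 with edgeR), nor without IKK-16 replicate 1 (adjusted p = 0.0609 and 0.117 with edgeR). With only these 2 groups in the model Mertk was not called (adjusted p = 0.0582 with edgeR). Stab1 had a log2 change of 0.47 (edgeR adjusted p = 0.044), under the fold threshold, and 0.60 without IKK-16 replicate 1. RLE scaling set the median of all genes 0.109 lower here than scaling by total counts.

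The 2 h group differed from CM + Rux in 4 of the 7 genes, beside 23.3% of all genes. Gas6 was higher, at 533 ± 63.5 CPM (SD, n = 2) against 179 ± 8.05 CPM (SD, n = 3), which is 1.58 ± 0.12 in log2 (SE, edgeR adjusted p = 5.8e-07). Mertk was higher by 1.25 in log2 (SE 0.28, edgeR adjusted p = 0.0029) and Timd4 was lower, at -1.07 ± 0.22 in log2 (SE, edgeR adjusted p = 0.002). Pros1 was higher by 0.55 (SE 0.18, edgeR adjusted p = 0.025), and this call was lost without 2 h replicate 2 (adjusted p = 0.176 with edgeR), without CM + Rux replicate 1 (0.0915) and without CM + Rux replicate 3 (0.0569). Mfge8 at 0.39, Stab1 at 0.26 and Axl at -0.19 were not called, and Mfge8 was called at 0.52 without CM + Rux replicate 3. Samples of 6 of 7 genes did not overlap, beside 59.6% of all genes. This comparison, too, shares the CM + Rux samples with the contrast by which the genes were chosen, so the values of Mertk and Timd4 lean in the reported directions. Zbtb46, a transcription factor of dendritic cells, was at 10.1 ± 3.05 CPM in the 2 h group and at 0.647 to 2.09 CPM in all other samples, and its part was not tested.

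Per kilobase of exon, Timd4 and Mertk changed places between media. The ratio of Timd4 to Mertk FPKM was 0.357 and 0.236 in DMEM and 0.101, 0.193 and 0.145 in DMEM + Rux, so Mertk was the higher in all 5 samples. It was 3.48, 2.06 and 4.75 in CM and 4.33 and 3.66 in the 2 h group. In CM + Rux it was 17.8, 18.3 and 25.1, above all other samples, and with IKK-16 it was 4.36, 3.60 and 6.57, which overlapped with CM. The direction of the ruxolitinib part of this pattern was set by the choice of the genes.

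**Figure D3:**
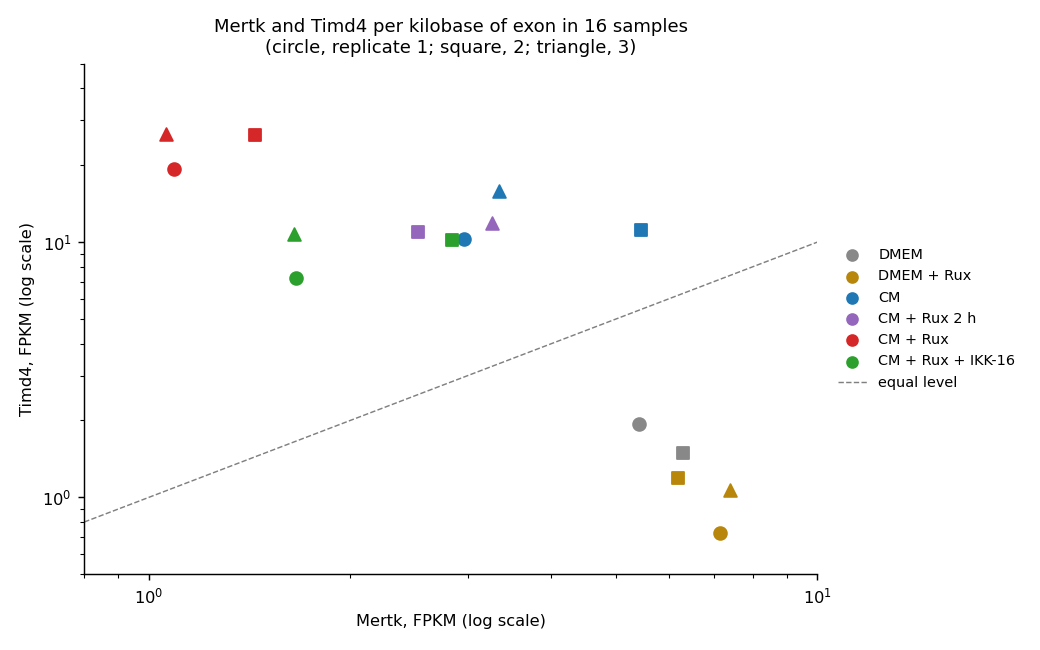
Mertk (x axis) against Timd4 (y axis) in FPKM on log scales, 1 point per sample, coloured by group and shaped by replicate number, with a dashed line of equal levels. The 5 samples without tumor medium lie below the line at Timd4 levels of 0.723 to 1.93 FPKM, and the 3 CM + Rux samples lie at the top left with Mertk at 1.06 to 1.44 FPKM.

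Across the 16 samples, the log2 levels of Mertk and Timd4 had a Pearson correlation of -0.842, and those of Mertk and Pros1 one of 0.857. These are descriptions over 6 groups that share media and inhibitors. The negative sign for Mertk and Timd4 was favoured by their choice. Between CM and DMEM 45.0% of all genes were called, so many genes share the split between media. Among 11559 genes, those closest to Mertk were Ap1b1 (r = 0.946), Zcchc24 (0.942) and Adap2 (0.937). Ap1b1 encodes a subunit of the AP-1 adaptor of vesicle traffic, and its mean was 140 CPM in DMEM and 78.0 CPM in CM + Rux. Closest to Timd4 were Snx10 (r = 0.989), which encodes an endosomal sorting nexin, the predicted gene Gm7019 (0.988) and Lztfl1 (0.988), which encodes a protein of ciliary transport. Lztfl1 had 20.8 CPM in DMEM, 81.7 CPM in CM, 125 CPM in CM + Rux and 67.8 CPM with IKK-16.

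A list of 73 other genes of efferocytosis, of which 67 were tested, covered further receptors, bridging molecules, signals from and to dying cells, engulfment, digestion of the corpse, and the response to its lipids. In CM against DMEM 26 were higher and 18 lower, a share of 65.7% beside 45.0% of all genes, with a median log2 fold change of 0.18 beside -0.005 over all genes. This and the other gene lists were chosen with earlier results of these data known. A share above that of all genes, here or in other comparisons, can therefore come from the choice. Thbs1, a thrombospondin that bridges dying cells to macrophages, was at 26.5 ± 4.20 CPM in DMEM (SD, n = 2) and rose in CM to 3940 ± 1130 CPM (SD, n = 3), a log2 change of 7.22 (edgeR adjusted p = 7.8e-08). Havcr2, which encodes the receptor TIM-3, rose by 4.33, the cytokine gene Il10 by 4.77 and the glucose transporter gene Slc2a1 by 3.66 on the log2 scale. Pparg, a nuclear receptor that promotes efferocytosis genes, fell from 36.1 ± 14.7 CPM to 1.76 ± 0.267 CPM, a log2 fold change of -4.34. Havcr1, a relative of Timd4, had 1.48 ± 0.211 CPM in CM and 0.0352 ± 0.00804 CPM in DMEM, where its counts are too few for a fold change. All 7 genes of find-me and do-not-eat-me signalling were called, 5 higher and 2 lower, and of 12 engulfment genes 2 were higher and 5 lower.

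With ruxolitinib in tumor medium 6 of these 67 genes were called, 3 in each direction (8.96% beside 3.33% of all genes, median log2 fold change -0.06 beside 0.007). Cx3cr1, the receptor of the find-me signal fractalkine, rose from 40.9 ± 17.0 to 133 ± 36.4 CPM (SD, n = 3 each), a log2 change of 1.70 (edgeR adjusted p = 0.019). Itgb3, an integrin chain that binds MFG-E8, rose by 1.26 in log2 and Mylip, a target of liver X receptors, by 1.15. Mylip was the 1 gene called of 14 lipid-response genes, and Abca1 at -0.34 and Abcg1 at -0.40 were not called. The nucleotide receptor gene P2ry2 at -0.71, Msr1 at -0.51 and Cd300a at -0.50 were lower. Leaving out CM replicate 1 gave 3 genes, and leaving out CM + Rux replicate 1 gave 3 as well. In DMEM, 0 of the 67 genes were called with ruxolitinib by edgeR and 0 by DESeq2, and 2 passed an unadjusted p-value of 0.05 and the fold threshold, 1 in each direction. The count was 1 without DMEM replicate 2.

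With IKK-16 on top of CM + Rux 9 of the 67 genes were called, 6 higher and 3 lower (13.4% beside 7.74%, median 0.04 beside -0.002). Il10 fell from 69.3 ± 44.4 to 8.55 ± 7.29 CPM (SD, n = 3 each), a log2 change of -3.04 (edgeR adjusted p = 0.0041), and Havcr1 fell by 1.07 in log2. Cd300lf, a lipid receptor, rose by 2.74, Cd300a by 0.69, and the lipid-response genes Rxra and Abcg1 by 0.59 and 0.57. Of the 14 lipid-response genes 2 were higher, 1 was lower and 11 were not called, among them Abca1 at -0.09 and Mylip at -0.06. Against CM, 14 genes differed in CM + Rux + IKK-16, 10 higher and 4 lower (20.9% beside 12.7%, median -0.06 beside 0.0). Cx3cr1 at 1.75 and Mylip at 1.09 were higher, and P2ry2 at -1.09 and Msr1, a scavenger receptor, at -1.06 were lower. The 2 h group differed from CM + Rux in 17 genes, 11 higher and 6 lower (25.4% beside 23.3%, median 0.12 beside -0.027). Lipa, the lysosomal lipase, was at 1500 ± 60.4 CPM against 587 ± 91.5 CPM, Thbs1 had a log2 fold change of -2.56 and Pparg one of 1.93.

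**Figure D4:**
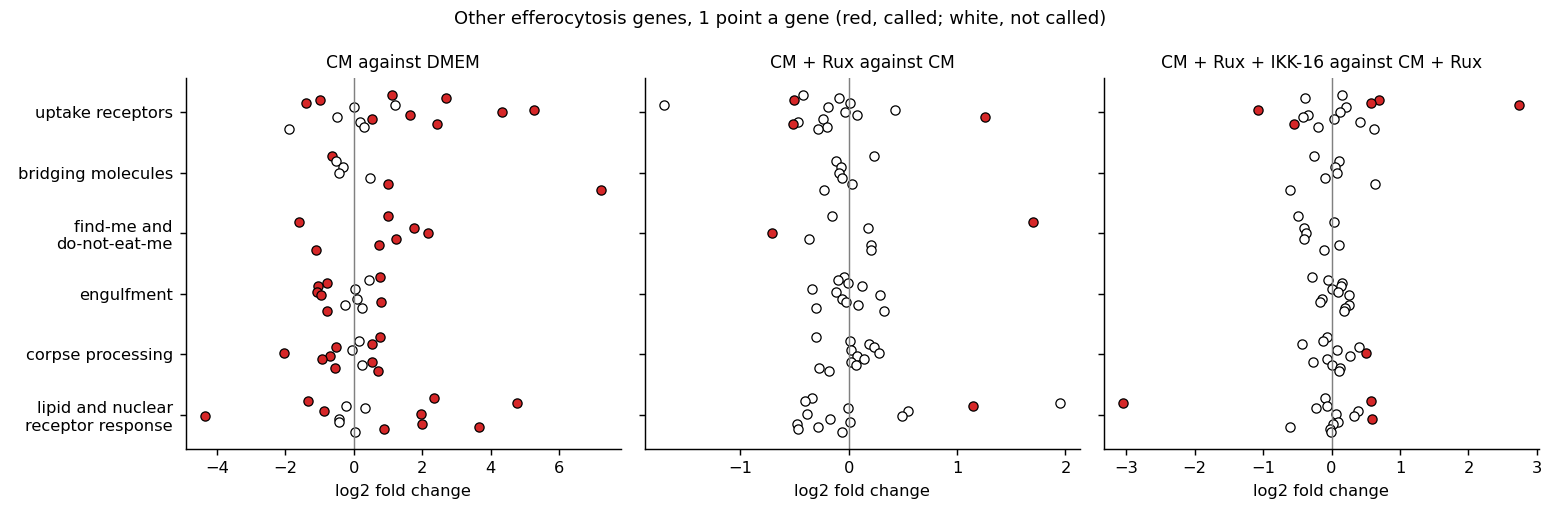
Log2 fold changes (x axis) of the 67 tested genes of the wider efferocytosis list, by function (y axis), in 3 comparisons. Each point is a gene, red where called and white where not. Called genes lie on both sides of 0, with 26 higher and 18 lower in CM against DMEM, 3 and 3 in CM + Rux against CM, and 6 and 3 where IKK-16 was added.

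MERTK is cut from the cell surface by the protease ADAM17, which needs the iRhom proteins of Rhbdf1 and Rhbdf2. Of 5 genes of this shedding, CM had 3 at a higher and 1 at a lower level than DMEM, beside 45.0% of all genes called. Adam17 was at 715 ± 10.4 CPM in DMEM (SD, n = 2) and fell in CM to 387 ± 24.0 CPM (SD, n = 3), a log2 change of -0.88 (edgeR adjusted p = 1.3e-06), and Rhbdf2 rose by 1.64 and Rhbdf1 by 1.80. The inhibitor gene Timp3 rose by 1.93, from 0.405 ± 0.238 CPM in DMEM to 1.51 ± 0.443 CPM in CM, levels near the filter of 1 CPM. With ruxolitinib in CM, 0 of the 5 were called by edgeR, beside 3.33% of all genes, and 0 passed an unadjusted p-value of 0.05 with a fold change beyond the threshold. Adam17 had 490 ± 13.6 CPM there against 387 ± 24.0 CPM in CM, a log2 fold change of 0.34 that passed the adjusted p-value (0.025 with edgeR) and not the fold threshold. With IKK-16 on top, Rhbdf1 at -0.88 and Rhbdf2 at -0.52 were lower, 2 of 5 beside 7.74% of all genes, and against CM the same 2 genes were lower, at -0.83 and -0.71, beside 12.7%. Adam10, the other protease, was not called in any of these comparisons. Rhbdf1, Rhbdf2 and Timp3 were named after their values were seen.

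Of 9 transcription factors known to act on Mertk or its relatives, 3 were lower in CM than in DMEM, namely Pparg, Klf2 at -1.95 and Nr1h3 at -0.87. This share of 33.3% is no larger than the 45.0% of all genes called. Nr1h3 encodes a liver X receptor, which is known to induce Mertk, and had 27.1 ± 1.15 CPM in DMEM and 14.8 ± 3.28 CPM in CM. With ruxolitinib in CM, 0 of the 9 were called by edgeR, beside 3.33% of all genes, and 2 passed an unadjusted p-value of 0.05 and the fold threshold, Nr1h3 at 0.55 and Maf at -0.76. Nr1h3 was at 21.7 ± 3.95 CPM there and overlapped with CM, and its part in the Mertk level was not tested. Rxra, the partner of the liver X receptors, was the 1 gene called where IKK-16 was added, 11.1% of the list beside 7.74% of all genes. Against CM, Nr1h3 was higher and Maf lower with IKK-16, at 0.94 and -0.85, which is 22.2% of the list beside 12.7%. In the 2 h group 2 genes of the list were higher than in CM + Rux, Pparg at 1.93 and Klf2 at 1.67, and 1 was lower. This is 33.3% of the list beside 23.3% of all genes. Klf2 and Maf were named after their values were seen.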

How the data were processed

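Messenger RNA of 16 samples of BMDMs was sequenced in paired ends from stranded libraries. Per the labels and the study's methods, the authors trimmed reads with Trimmomatic 0.33, aligned them to GRCm38 with HISAT2 2.1.0 and counted fragments per Ensembl gene with featureCounts 1.6.2. The deposited values are raw counts, with 18449388 to 46215853 per sample, and 0 sample columns were unmapped. Symbols were found for 55141 identifiers, and the 346 without took up to 0.0459% of any sample. Genes needed over 1 CPM in at least 2 samples, which left 12372. Counts were scaled by RLE and fitted over all 6 groups with edgeR 4.0.16 (limma 3.58.1, R 4.3.3), and its quasi-likelihood test was adjusted by Benjamini-Hochberg over all genes tested. Calls needed an adjusted p under 0.05 and a log2 fold change beyond 0.5. The scripts were tested on simulated data. Tables and plots used Python 3.11.15, pandas 2.3.3, numpy 2.4.6 and matplotlib 3.10.9.

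The 8 genes and all gene lists were chosen with earlier results of these data known. All 8 genes were named, with up to 6 called genes of the wider list per comparison that had the largest fold changes and no overlap, and the 3 genes most like Mertk and Timd4 by Pearson correlation of log2(CPM + 1) over genes averaging 1 CPM or more. Comparisons share samples and are not independent. Chi-square tests between replicates gave 14.2 to 54.4 per degree of freedom, so none was a copy. In the 3 comparisons with 3 shared replicate numbers, same-numbered samples deviated together (correlations 0.367 to 0.614, and -0.409 to -0.052 for other pairs), which was taken as pairing. Alternatives were TMM scaling, no filter or filterByExpr, the replicate block, edgeR's likelihood ratio test, DESeq2 1.42.0, only the groups compared, and each sample left out. Values of 1 gene of the transcription factor list are not reported here.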

Additional observations from a re-analysis of the deposited data

Results flagged for a closer look

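The log2 fold change of Timd4 with ruxolitinib was 0.95 in tumor medium and -0.75 in DMEM, a difference of 1.7. It is given here because all 3 CM + Rux samples lay above all 3 CM samples, while all 3 DMEM + Rux samples lay below both DMEM samples. Over all genes, 19.2% had groups without overlap for ruxolitinib in tumor medium and 18.5% in DMEM. The choice of Timd4 by its response to ruxolitinib favoured such a separation. The difference was not tested, since Timd4 was chosen by its response to ruxolitinib.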

How the results depend on the processing

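Of 350 values of the tested genes under other settings, 310 kept their direction and side of the threshold, 11 lost a call, 15 gained one and 14 changed sign. The calls of Timd4 and Gas6 in CM against DMEM held under every alternative. So did those of Timd4 with IKK-16 against CM + Rux, and of Mertk, Gas6 and Timd4 in the 2 h group. Both the IKK-16 and the 2 h comparison reuse the CM + Rux samples of the contrast by which Mertk and Timd4 were chosen. Other settings do not remove that lean, so the calls of Mertk and Timd4 there gain no independent support from them. In CM against DMEM 2 genes were called, and 2 to 4 when single samples were left out. With IKK-16 against CM + Rux, the 1 gene called became 3 with TMM scaling, 2 without the filter, with the replicate block, with the likelihood ratio test and with DESeq2, and 1 to 2 with samples left out. With IKK-16 against CM, 2 became 1 with only the groups compared and 0 to 2 with samples left out. For the wider list, leaving out samples gave 3 to 8 genes in CM + Rux against CM, and 0 to 1 in DMEM + Rux against DMEM. The cause was not tested.

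Values that changed sign were small. Leaving out samples gave -0.40 to 0.04 for Pros1 and -0.02 to 0.14 for Mfge8 in CM against DMEM. With IKK-16 against CM + Rux it gave -0.21 to 0.07 for Axl (0.00 among them), -0.15 to 0.09 for Pros1 (0.04 among them) and -0.12 to 0.15 for Mfge8 (-0.06 and -0.02 among them). With IKK-16 against CM it gave -0.19 to 0.07 for Axl (0.03 among them) and -0.12 to 0.10 for Mfge8 (-0.07 among them).

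Where groups share only 2 replicate numbers, the replicate block moved Mfge8 to -0.08 and called Mertk at -0.57 (adjusted p = 0.0353 with edgeR) in CM against DMEM, and gave Pros1 in the 2 h group 0.46, no longer called. Beside these and Mertk with IKK-16, the block changed no other call of the 7 genes. Over all genes, CM + Rux against CM gave 412 calls, 685 without the filter, 745 with the block and 243 to 486 with samples left out, and DMEM + Rux against DMEM gave 120 and 180 without the filter. Tyro3, with at most 28 counts, is limited by depth.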

Other observations

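Il10, a cytokine gene that efferocytosis is known to induce, was highest in the 2 h group, at 147 ± 14.1 CPM (SD, n = 2). It had 69.3 ± 44.4 CPM in CM + Rux, 17.8 ± 11.2 CPM in CM and 8.55 ± 7.29 CPM with IKK-16 (SD, n = 3 each), and 0.698 ± 0.402 CPM in DMEM. Its CM + Rux samples ran from 32.8 to 119 CPM, so its spread within a group was wide. In CM + Rux against CM it was not called, at 1.95 in log2 (edgeR adjusted p = 0.068). Cx3cr1, the fractalkine receptor, had 123 ± 15.7 CPM in DMEM, 40.9 ± 17.0 CPM in CM and 133 ± 36.4 CPM in CM + Rux. It had 92.6 ± 39.9 CPM in DMEM + Rux, 137 ± 26.8 CPM with IKK-16 and 168 ± 69.3 CPM in the 2 h group.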
